A study of Mus musculus with 28 samples.

Results

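The RNA of 2 sets of control macrophage cultures was compared, with 3 libraries in each set. These 6 libraries are part of a mouse series of 28 RNA-seq samples, 16 of livers and 12 of cultured macrophages, made to ask how NFATc3 and ASK1 act in macrophages during steatohepatitis. Both sets carry the genotype Lyz2-Cre, in which a recombinase is driven by the promoter of the myeloid lysozyme gene, and no NFATc3 or ASK1 allele is listed for them. In both, bone marrow cells were labelled as grown into macrophages (BMDMs) for 7 days in DMEM with fetal ovine serum and 30% L929-conditioned medium. The set named as control for NFATc3-MKI, the macrophage knock-in of NFATc3, is called the NFATc3 set here. The set named as control for ASK1-MKI, the macrophage knock-in of ASK1, is called the ASK1 set. The members were taken from the sample titles alone, and no measured value entered that choice. The labels give no age or sex for the donors of the cultures and do not say whether the 3 libraries of a set came from separate mice, so p-values measure only the spread between these libraries, which may be technical. Each set was deposited in a table of its own, so a difference between the cultures and a difference between the tables cannot be told apart anywhere in what follows.

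L929 cells release M-CSF, the growth factor that binds the receptor encoded by Csf1r and drives bone marrow progenitors to become macrophages. Along that path the cells switch on phagocytic receptors, lysosomal proteases, complement components and pattern recognition receptors under transcription factors such as PU.1 (Spi1) and c-MAF. Adgre1 encodes F4/80, the surface antigen by which mouse macrophages are most often recognised, and Lyz2 encodes the lysozyme whose promoter drives the Cre of these mice.

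The 2 sets were deposited with different lists of genes. One table holds 56748 Ensembl identifiers and the other 21959, with 21958 in both, of which 21774 were annotated as protein coding and 6228 had no count in any of the 6 libraries. Counts over the shared identifiers ran from 7129338 to 7941243 per library in the NFATc3 set and from 17160260 to 18728508 in the ASK1 set. All levels below are CPM of those shared counts (each gene's share of the library, scaled to a common total), and differences are log2 fold changes of the ASK1 set over the NFATc3 set with their standard error. On log2(CPM + 1) values, libraries of the same set correlated at 0.994 to 0.998 and libraries of different sets at 0.645 to 0.654 (Pearson, across genes, which are not independent replicates). Ribosomal protein genes took 7.64 to 8.97% of counts in the NFATc3 set and 2.18 to 2.24% in the ASK1 set. A gene was called when its adjusted p was under 0.05 and its fitted change at least 2-fold. Of 11815 genes tested, 6382 were called, 54.0%, with 3348 higher in the ASK1 set (28.3%) and 3034 lower (25.7%). At the p threshold alone, 10579 were called, 89.5%. Higher genes were thus 52.5% of the calls. Without a scaling factor this share was 40.7%, from 2661 higher and 3871 lower genes, and the median over all genes moved from 0.06 to -0.31, so changes are read against these medians. CPM values of the sets did not overlap at 10659 genes, 90.2% of those tested, so absence of overlap alone marks no gene out. Gene lists below are counted over the members that passed a filter on low counts. A member without counts in one set passed through the other set alone and had to differ, so these counts and medians describe the lists and test nothing.

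The defining markers of the labelled cell type were present in the ASK1 set and low or absent in the NFATc3 set. Adgre1 stood at 33.2, 34.9 and 32.8 CPM in the NFATc3 set and at 2697, 2704 and 2739 CPM in the ASK1 set, a log2 difference of 6.70 ± 0.07 (adjusted p = 1.83e-22). Mertk, a receptor for apoptotic cells found on most mature macrophages, stood at 0.140, 0.126 and 0 CPM against 206, 218 and 207 CPM, a ratio of 2402-fold with an exact 95% interval of 665 to 19833 that covers counting error only. The 3 chains of complement C1q, which macrophages secrete in quantity, had no count in any library of the NFATc3 set. The NFATc3 set therefore goes against its BMDM label at these genes, and each direction below refers to the libraries so labelled. Fewer cells of a type and less RNA per cell cannot be told apart in bulk RNA.

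All 20 pan-macrophage genes were higher in the ASK1 set, with a median log2 difference of 3.38 against 0.06 over all genes tested. Their summed level was 3235 to 3493 CPM in the 3 libraries of the NFATc3 set and 47697 to 49935 CPM in those of the ASK1 set. Lyz2 alone took 438, 393 and 432 CPM and 29157, 26875 and 28983 CPM (6.43 ± 0.09, adjusted p = 1.26e-21). In an exact two-sided permutation test on its log2 CPM it reached p = 0.1, the smallest that 3 against 3 libraries allow. The sets did not overlap, and the gene whose promoter drives Cre in these mice was the lower in all 3 libraries of the NFATc3 set. Mpeg1, which encodes the pore-forming perforin-2 of phagosomes, stood at 160, 194 and 161 CPM and 5783, 5755 and 5685 CPM (5.43 ± 0.08). Fcgr1, the high-affinity IgG receptor, stood at 25.8, 24.1 and 26.3 CPM and 398, 411 and 402 CPM (4.35 ± 0.06).

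Not every macrophage gene was near 0 in the NFATc3 set. Cd68, a glycoprotein of late endosomes, stood at 780, 892 and 770 CPM there and at 1695, 1728 and 1690 CPM in the ASK1 set (1.43 ± 0.06). Csf1r, the M-CSF receptor, stood at 290, 310 and 299 CPM and 1536, 1522 and 1541 CPM (2.72 ± 0.06). Spi1, which encodes the PU.1 factor needed by all myeloid cells, stood at 86.1, 103 and 88.5 CPM and 183, 189 and 190 CPM (1.37 ± 0.06). These genes were thus well counted in every library of both sets and differed by a few fold, without overlap. The smallest difference of the 20 genes was that of Cd14, the lipopolysaccharide co-receptor, at 208, 216 and 197 CPM and 344, 352 and 374 CPM (1.15 ± 0.06).

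**Figure D1:**
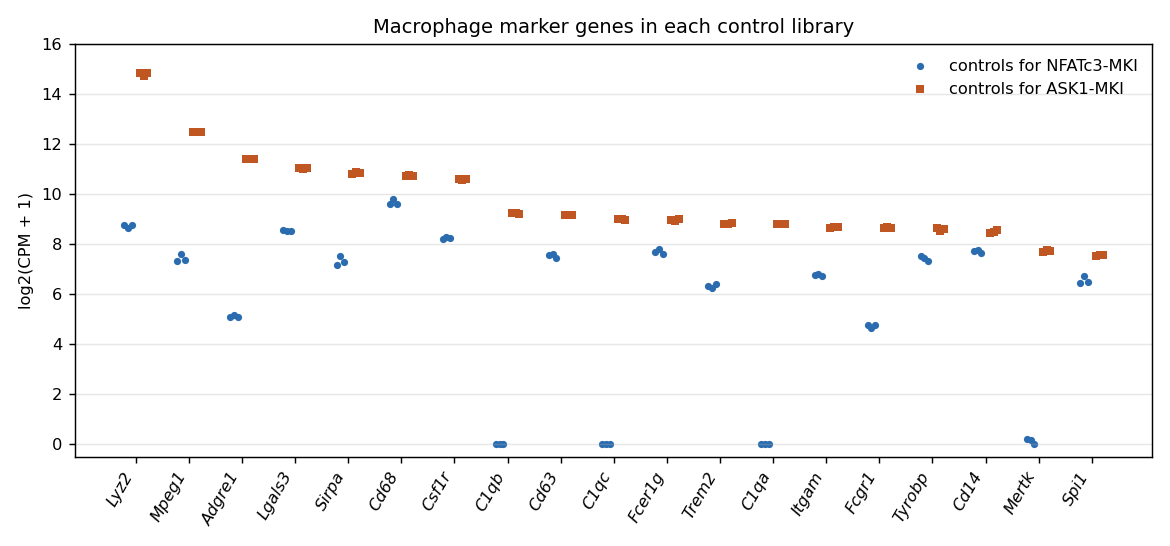
Levels of 19 of the 20 pan-macrophage genes as log2(CPM + 1), with a point for each of the 3 libraries of the NFATc3 set and of the ASK1 set. Every gene plotted lies higher in the ASK1 set, from 3 C1q genes without a count in the NFATc3 set to Cd14 with a log2 difference of 1.15.

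Transcription factors of the lineage differed unequally. Maf, which encodes c-MAF, had no count in the NFATc3 set and 188, 179 and 180 CPM in the ASK1 set, at least 1389-fold higher when the empty group is set to 3 counts over its 3 libraries. Cebpa, a factor of myeloid progenitors and macrophages, stood at 4.49, 6.04 and 6.42 CPM and 163, 159 and 158 CPM (5.17 ± 0.09, adjusted p = 1.66e-20). Nr1h3, the oxysterol receptor LXR alpha, stood at 1.26, 0.882 and 0.514 CPM and 40.9, 40.8 and 45.2 CPM (5.94 ± 0.17). In contrast to these, Irf8, a factor of monocytes and dendritic cells, was present in both sets at 83.0, 96.1 and 93.5 CPM and 191, 186 and 190 CPM (1.42 ± 0.05). Cebpb, a factor of inflammatory macrophages, stood at 119, 135 and 123 CPM and 61.0, 54.3 and 59.6 CPM (-0.75 ± 0.06), short of a call, and its sign turned to 0.71 after a trend on GC content and length was removed.

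Of 12 tested genes of the M-CSF and GM-CSF axis, 9 were higher and 1 lower in the ASK1 set (median 2.61). The receptor subunits for GM-CSF, IL-3 and IL-5 were among the higher ones. Csf2rb, their common beta chain, stood at 20.8, 28.8 and 24.4 CPM and 412, 411 and 423 CPM (4.43 ± 0.08), and Csf2rb2, its near copy that serves IL-3, at 2.10, 3.78 and 2.95 CPM and 302, 317 and 317 CPM (7.07 ± 0.10). These copies have exons that overlap another gene on the same strand, so the split of reads between them is uncertain. Myc, the growth-control factor that M-CSF induces, was the lower one at 40.4, 31.6 and 29.5 CPM and 7.76, 6.82 and 6.35 CPM (-1.91 ± 0.13).

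Some genes were switched fully between the sets. Among 158 genes with no count in the NFATc3 set and at least 10 CPM in the ASK1 set, 111 also had no count in the 3 NFATc3-MKI libraries. Pla2g7, a secreted phospholipase of macrophages, had 1739, 1744 and 1774 CPM in the ASK1 set and was at least 13352-fold higher. Ms4a7, a membrane protein of macrophages, had 1026, 1077 and 1035 CPM and was at least 7968-fold higher. Mmp8, the collagenase of granules, had 998, 990 and 1034 CPM, and Tgfbi, a matrix protein induced by TGF-beta, 831, 818 and 807 CPM, at least 7674-fold and 6235-fold higher. Marco, a scavenger receptor for bacteria, had 733, 750 and 759 CPM and was at least 5694-fold higher. C1qa had 440, 445 and 446 CPM, C1qb 605, 597 and 595 CPM and C1qc 511, 513 and 497 CPM, at least 3381-fold, 4564-fold and 3862-fold higher. None of these genes had a count in any of the 3 libraries of the NFATc3 set, where 3 counts over the set correspond to 0.131 CPM.

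The start regions of 3 such genes are printed because their transcripts were in every library of one set and in none of the other. Each is the 250 bases before the RefSeq start on mouse build GRCm38.p6, all on the minus strand, written 5′ to 3′. Capitals mark GAGGAA, a core of the PU.1 motif, and TGCTGA, a half-site of the Maf motif, searched on both strands (TTCCTC and TCAGCA on the other). C1qb lies at chr4:136886201-136886450, Marco at chr1:120505025-120505274 and Ms4a7 at chr19:11336147-11336396.
C1qb: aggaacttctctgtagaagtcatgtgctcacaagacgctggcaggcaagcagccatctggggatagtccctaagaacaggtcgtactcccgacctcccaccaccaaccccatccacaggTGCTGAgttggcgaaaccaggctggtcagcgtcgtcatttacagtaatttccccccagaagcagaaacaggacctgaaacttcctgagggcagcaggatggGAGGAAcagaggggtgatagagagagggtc
Marco: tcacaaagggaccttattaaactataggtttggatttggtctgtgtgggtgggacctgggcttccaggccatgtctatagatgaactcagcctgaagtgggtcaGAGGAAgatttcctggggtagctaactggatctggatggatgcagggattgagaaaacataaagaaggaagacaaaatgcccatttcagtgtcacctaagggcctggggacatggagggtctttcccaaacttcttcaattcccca
Ms4a7: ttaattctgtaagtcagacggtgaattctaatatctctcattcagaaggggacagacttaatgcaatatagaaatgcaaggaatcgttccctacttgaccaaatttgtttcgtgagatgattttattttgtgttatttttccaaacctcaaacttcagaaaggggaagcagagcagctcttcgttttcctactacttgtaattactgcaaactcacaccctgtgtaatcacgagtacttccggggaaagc
C1qb held 1 copy of each motif, Marco 1 copy of GAGGAA, and Ms4a7 neither. Among 32536 mouse promoter windows of the same length, 23.4% held GAGGAA or its complement, 16.1% TGCTGA or its complement and 3.7% both. These matches describe letters only, and neither a match nor its absence tells anything about binding.

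Among genes that could be measured in both sets (a rule that asks for at least 0.5 CPM in the lower set), 10 led those higher in the ASK1 set. These were Saa3, Cd36, Ms4a6d, Apoe, Abca1, Igf1, Ifi209, Pirb, Cd93 and Timp2, and genes lower in the ASK1 set were ranked apart. Saa3, an acute-phase apolipoprotein made by activated macrophages, stood at 4.21, 6.30 and 4.11 CPM in the NFATc3 set and 8714, 8519 and 9153 CPM in the ASK1 set (11.17 ± 0.11, adjusted p = 1.83e-22). Cd36, the receptor for oxidised lipoprotein, stood at 2.39, 1.13 and 1.67 CPM and 1991, 1987 and 1972 CPM (10.53 ± 0.11). Apoe, which carries cholesterol out of macrophages, stood at 9.54, 17.4 and 9.37 CPM and 7498, 7939 and 7820 CPM (9.68 ± 0.14). All 10 genes were at most 17.4 CPM in the NFATc3 set and at least 176 CPM in the ASK1 set. Igf1, a growth factor of tissue macrophages, stood at 0.842, 1.01 and 1.54 CPM and 581, 592 and 578 CPM (9.35 ± 0.11), and Pirb, an inhibitory receptor for MHC class I, at 1.54, 2.14 and 0.899 CPM and 584, 617 and 549 CPM (8.92 ± 0.12).

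Most monocyte genes were also higher in the ASK1 set. Of 10 monocyte genes, all tested and 4 of them without a count in the NFATc3 set, 9 were higher and 1 lower, with a median of 10.05, or 6.55 when genes at 0 are placed at their lower bound. Ms4a4c had no count in the NFATc3 set and 244, 254 and 247 CPM in the ASK1 set, at least 1894-fold higher, and Ly6c2, which encodes the Ly6C antigen of blood monocytes, stood at 0.140, 0 and 0 CPM and 72.9, 75.2 and 75.2 CPM. Ccr2, the receptor that brings monocytes out of the marrow, stood at 0.421, 0.252 and 0.257 CPM and 10.9, 9.56 and 9.13 CPM (5.32 ± 0.28). Nr4a1, a factor of patrolling monocytes that is also an immediate early gene, ran the other way at 11.4, 14.4 and 12.5 CPM and 2.49, 2.86 and 2.40 CPM (-1.94 ± 0.16).

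The 12 tissue-resident macrophage genes summed to 3.23 to 3.98 CPM in the NFATc3 set, where 8 of them had no count, and to 1501 to 1555 CPM in the ASK1 set. The 7 that passed the filter did so mainly through the ASK1 set. The defining Kupffer cell genes Clec4f and Timd4 did not pass it, with Clec4f at 0 in all 6 libraries. Siglec1, the sialic acid receptor CD169, stood at 2.67, 3.40 and 3.47 CPM and 540, 572 and 556 CPM (7.80 ± 0.09). Spic, a factor of iron-recycling macrophages, had 62.6, 66.4 and 67.7 CPM in the ASK1 set alone, at least 500-fold higher. Cd5l, a secreted scavenger protein, stood at 0, 0 and 0.128 CPM and 149, 148 and 146 CPM, a ratio of 3369-fold with an exact 95% interval of 605 to 133088.

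The 14 neutrophil and granule genes summed to 167 to 265 CPM in the NFATc3 set, where 7 of them had no count, and to 1825 to 1898 CPM in the ASK1 set. Of these, 9 passed the filter, most of them through the ASK1 set. S100a8 had no count in the NFATc3 set and 76.6, 73.8 and 76.8 CPM in the ASK1 set, at least 577-fold higher. Lcn2, a siderophore-binding protein, stood at 158, 252 and 172 CPM and 611, 598 and 631 CPM (2.02 ± 0.15). The defining neutrophil genes Ly6g, Cxcr2 and Retnlg remained under 1 CPM in every library of both sets. Of 12 dendritic cell genes 7 were tested, of which 5 were higher and 1 lower (median 1.74), and Cd209a was at 0 in all 6 libraries. Of 10 osteoclast genes 7 were tested, of which 5 were higher and 1 lower (median 4.54). Ctsk, the collagen-degrading cathepsin K, stood at 0.561, 0.378 and 0.128 CPM and 65.8, 65.3 and 66.0 CPM (7.87 ± 0.17), while Dcstamp, needed for fusion of precursors, stood at 8.28, 9.57 and 7.83 CPM and 0.397, 0.816 and 0.427 CPM (-3.60 ± 0.26).

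Phagocytic receptors were higher in the ASK1 set. Of 21 scavenger and C-type lectin receptor genes tested, 20 were higher and none lower, with a median of 5.66, and 3 of the 22 listed had no count in the NFATc3 set. Clec4d, which senses mycobacterial glycolipid, stood at 54.6, 63.8 and 54.5 CPM and 2024, 2099 and 2102 CPM (5.53 ± 0.07). Msr1, the class A scavenger receptor, stood at 57.7, 78.2 and 58.0 CPM and 1066, 1058 and 1058 CPM (4.40 ± 0.08). Clec7a, the beta-glucan receptor Dectin-1, stood at 2.67, 1.51 and 2.70 CPM and 238, 233 and 230 CPM (7.04 ± 0.10). For all 3 of these the libraries of the NFATc3 set held measurable but far lower levels. Mrc1, the mannose receptor, was nearly empty there at 0.140, 0 and 0.128 CPM against 80.2, 87.4 and 79.7 CPM, a ratio of 941-fold with an exact 95% interval of 260 to 7771. The gene without a call was Colec12, a scavenger receptor of endothelial and stromal cells, at 49.8, 52.4 and 58.9 CPM and 21.3, 22.1 and 22.2 CPM (-0.94 ± 0.08).

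Of 18 complement genes, 17 were tested and called higher in the ASK1 set (median 4.32), and 5 of the 18 had no count in the NFATc3 set. C3, the central component, stood at 57.5, 63.0 and 60.5 CPM and 1131, 1141 and 1133 CPM (4.59 ± 0.06), and C3ar1, the receptor for its fragment C3a, at 23.6, 22.9 and 19.5 CPM and 1597, 1585 and 1582 CPM (6.54 ± 0.08). Cfp, which encodes properdin, differed least of the abundant members at 114, 129 and 109 CPM and 227, 229 and 236 CPM (1.34 ± 0.06).

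Of 26 lysosomal genes tested, 16 were higher and none lower (median 1.17), so this list differed by less than the surface receptors did. Ctss, the cathepsin that trims the MHC class II invariant chain, stood at 328, 321 and 303 CPM and 6595, 6460 and 6463 CPM (4.72 ± 0.07). Ctsb stood at 3176, 3312 and 2912 CPM and 11612, 11598 and 11718 CPM (2.25 ± 0.07). Lamp1, a coat protein of the lysosomal membrane, was at 1618, 1464 and 1636 CPM and 1773, 1741 and 1763 CPM (0.52 ± 0.06) and was not called. Of 15 lipid-associated macrophage genes, 13 were higher and 1 lower (median 2.86). Gpnmb, a glycoprotein of lysosomal stress, stood at 457, 550 and 487 CPM and 11891, 11870 and 11895 CPM (4.94 ± 0.08), and Trem2, the lipid receptor, at 78.3, 74.9 and 82.8 CPM and 444, 448 and 455 CPM (2.87 ± 0.06). Spp1, which encodes osteopontin, was the lower one, at 4442, 4934 and 4364 CPM in the NFATc3 set and 674, 673 and 655 CPM in the ASK1 set (-2.42 ± 0.06). The levels of Spp1 in the NFATc3 set were above those of the ASK1 set in every library, but its exons overlap another annotated gene on the same strand, which leaves its lower value uncertain. Of the members of this list without exon overlap, all 12 were higher.

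**Figure D2:**
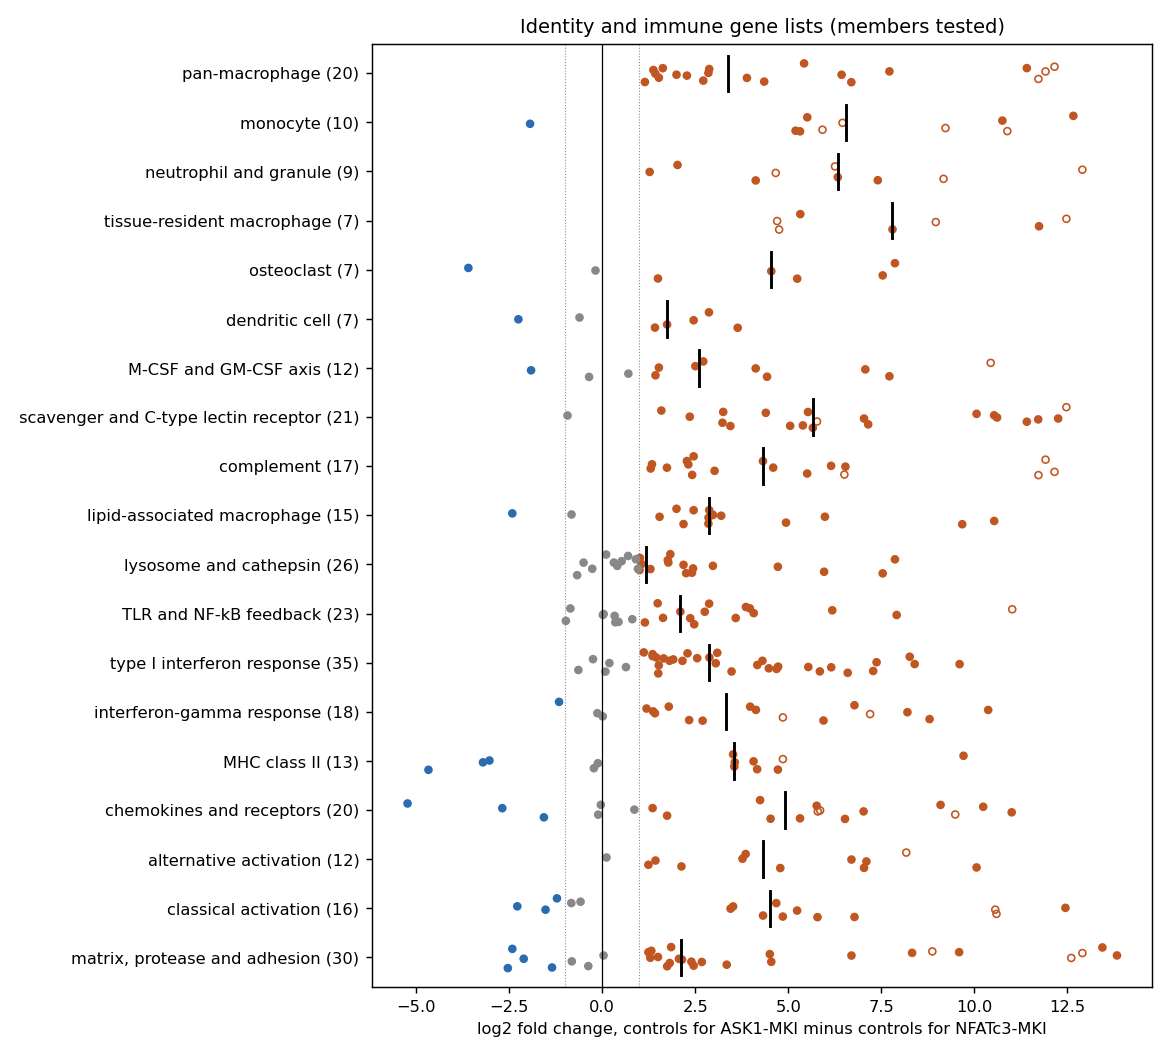
Log2 fold change (ASK1 set over NFATc3 set) of each tested member of the cell type, receptor and immune gene lists. Orange points were called higher and blue lower, grey points were not called, open circles are genes without a count in a set placed at their lower bound, black bars are medians and dotted lines mark 2-fold. The pan-macrophage genes lie wholly on the higher side, with a median of 3.38.

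Innate sensing and interferon genes were higher in the ASK1 set. Of 23 genes of Toll-like receptors and NF-kB feedback, 15 were higher and none lower (median 2.10). Tlr8 had no count in the NFATc3 set and 267, 282 and 268 CPM in the ASK1 set, at least 2075-fold higher. Tlr13, the sensor of bacterial ribosomal RNA, stood at 3.93, 4.53 and 3.85 CPM and 767, 787 and 767 CPM (7.91 ± 0.09), and Tlr7, a sensor of single-stranded RNA, at 9.40, 8.19 and 7.96 CPM and 489, 477 and 475 CPM (6.18 ± 0.08). The genes that did not reach a call were mostly shared adaptors and factors of the pathway, such as Myd88 (0.35 ± 0.07) and Nfkb1 (0.02 ± 0.05). Of 35 type I interferon response genes, 30 were higher and none lower (median 2.88). Ifit3 stood at 2.10, 1.39 and 1.28 CPM and 207, 202 and 205 CPM (7.37 ± 0.10), and Slfn5, the largest difference of the list after Ifit3b and Ifi205, at 2.24, 2.90 and 2.31 CPM and 604, 606 and 587 CPM (8.26 ± 0.09). Bst2, the tether of budding viruses, was at 483, 435 and 435 CPM and 376, 370 and 371 CPM (0.08 ± 0.06), and its sign turned to -0.28 without a scaling factor. Of 18 interferon-gamma response genes, 15 were higher and 1 lower (median 3.34). The lower one was Psmb8, a subunit of the immunoproteasome, at 132, 124 and 116 CPM and 43.3, 40.6 and 45.1 CPM (-1.16 ± 0.07), whose exons overlap a gene on the opposite strand. Ifi202b, an interferon-inducible gene that varies between mouse strains and is not on that list, was also lower, at 29.2, 20.3 and 22.5 CPM in the NFATc3 set and 0, 0.0583 and 0.0534 CPM in the ASK1 set, a ratio of 637-fold with an exact 95% interval of 176 to 5274.

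Most MHC class II genes were higher in the ASK1 set, but Cd74 was lower. Of 13 MHC class II genes, 8 were higher and 3 lower (median 3.55), and of the 9 without exon overlap 7 were higher and 1 lower. Cd74, the invariant chain that guides class II molecules, stood at 1093, 1237 and 1167 CPM in the NFATc3 set and 36.9, 34.4 and 35.4 CPM in the ASK1 set (-4.67 ± 0.06). H2-Ab1, a class II chain, stood at 1.54, 3.53 and 3.47 CPM and 35.1, 39.6 and 38.6 CPM (4.07 ± 0.15), and Ciita, the master regulator of the class II genes, had counts in the ASK1 set alone at 4.14, 3.85 and 3.42 CPM, at least 29.0-fold higher. Cd74 thus lay opposite to the class II chains it serves. H2-Oa and H2-Ob, inhibitors of peptide loading found mainly in B cells, were lower with Cd74 (-3.03 ± 0.24 and -3.21 ± 0.15). Exons of Cd74 overlap another annotated gene on the same strand and those of H2-Oa a gene on the opposite strand, so H2-Ob was the lower gene without overlap. Of 11 MHC class I genes, 5 were higher and 2 lower (median 0.88), and among the 6 without exon overlap 5 were higher and none lower, with B2m, the common light chain, at 2353, 2179 and 2295 CPM and 4517, 4531 and 4522 CPM (1.35 ± 0.06).

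Inflammatory genes moved in both directions. Of 16 classical activation genes, 11 were higher and 3 lower in the ASK1 set (median 4.50). Acod1, which makes itaconate, stood at 23.3, 38.9 and 26.3 CPM and 1266, 1246 and 1305 CPM (5.79 ± 0.12). The 3 lower genes were Nos2, the inducible nitric oxide synthase, at 146, 137 and 136 CPM and 38.7, 35.0 and 39.5 CPM (-1.53 ± 0.06), Tnf (-1.22 ± 0.05) and Ptgs2, the inducible cyclooxygenase (-2.28 ± 0.07). Il1b was low in both sets, at 0.701, 0.756 and 0.771 CPM and 16.7, 17.1 and 17.1 CPM (4.85 ± 0.19). Of 20 chemokine and receptor genes, 14 were higher and 3 lower (median 4.92). The lower ones were CC chemokines, with Ccl3 at 1698, 1621 and 1444 CPM in the NFATc3 set and 31.2, 33.4 and 34.0 CPM in the ASK1 set (-5.23 ± 0.08), Ccl4 at -2.69 ± 0.10 and Ccl9 at -1.57 ± 0.06. Ccl5 ran opposite to them at 39.8, 38.3 and 37.0 CPM and 665, 677 and 719 CPM (4.52 ± 0.07). Of 12 alternative activation genes tested, 11 were higher and none lower (median 4.32), among them Chil3, with counts in the ASK1 set alone at 38.8, 34.9 and 39.9 CPM and at least 288-fold higher, and Arg1, arginase 1, at 0.281, 0.756 and 1.16 CPM and 16.6, 17.3 and 14.8 CPM (4.79 ± 0.23). Retnla, another gene of that state, had no count in any library. Of 14 inflammasome and IL-1 genes, 10 were higher and 1 lower (median 2.77). Pycard, the ASC adaptor that joins inflammasome sensors to caspase-1, had no count in the NFATc3 set and 17.1, 19.3 and 20.3 CPM in the ASK1 set, at least 144-fold higher. Aim2, the cytosolic DNA sensor, was the lower one at 239, 238 and 233 CPM and 80.4, 77.8 and 79.8 CPM (-1.22 ± 0.05).

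The NFATc3 set was higher in genes of cell division. Of 36 cell cycle genes tested, 31 were lower in the ASK1 set and none higher, with a median of -2.12. Mki67, the proliferation antigen Ki-67, stood at 750, 645 and 746 CPM in the NFATc3 set and 187, 195 and 191 CPM in the ASK1 set (-1.54 ± 0.06, adjusted p = 1.67e-14). Cdc20, an activator of the anaphase-promoting complex, stood at 137, 135 and 153 CPM and 6.57, 6.06 and 5.39 CPM (-4.20 ± 0.08). Ccnd1, the cyclin that growth factors induce, stood at 229, 238 and 229 CPM and 17.7, 18.8 and 18.5 CPM (-3.30 ± 0.06). All libraries of the NFATc3 set lay above all of the ASK1 set at these genes. Among the 23 members without an exon overlapping another gene, 19 were lower and none higher. The cell cycle inhibitors Cdkn2a and Cdkn2b had no count in the NFATc3 set and were under 1 CPM in the ASK1 set.

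Mycn, a proto-oncogene of the MYC family, stood at 1022, 1064 and 1167 CPM in the NFATc3 set and had no count in the ASK1 set, so it was at least 19354-fold lower there. It also stood at 1023, 858 and 1113 CPM in the NFATc3-MKI libraries and at 0 in all 3 ASK1-MKI libraries. The gene spans chr12:12936093-12941914 on the minus strand of mm10, and none of its exons overlaps another annotated gene. Hoxb8 and Hoxb7 are homeobox genes of the Hoxb cluster, active in early haematopoietic progenitors, and were chosen after their values were seen. Hoxb8 stood at 8.56, 7.30 and 11.4 CPM and 0, at least 162-fold lower in the ASK1 set, and Hoxb7 at 13.8, 20.2 and 20.6 CPM and 0.0567, 0 and 0 CPM. Irx2, another homeobox gene, stood at 60.7, 65.6 and 56.3 CPM and 0, at least 1086-fold lower. Amotl1, a junction protein that binds the growth regulator YAP, stood at 269, 300 and 269 CPM and 0.567, 0.874 and 0.427 CPM (-8.44 ± 0.11), and St14, the membrane protease matriptase, at 253, 258 and 241 CPM and 3.23, 2.91 and 3.58 CPM (-5.91 ± 0.08).

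Most cholesterol synthesis genes were lower in the ASK1 set. Of 24 tested, 16 were lower and none higher (median -1.32), and of the 16 without exon overlap 9 were lower. Insig1, the sterol sensor whose gene SREBP2 induces, stood at 439, 444 and 470 CPM in the NFATc3 set and 36.2, 38.7 and 34.0 CPM in the ASK1 set (-3.28 ± 0.06). Lss, which closes the sterol ring, stood at 172, 169 and 188 CPM and 21.3, 22.6 and 21.4 CPM (-2.66 ± 0.06). No library of the ASK1 set reached the NFATc3 set at either gene. Of 14 genes of fatty acid synthesis and desaturation, 6 were lower and 2 higher (median -0.88). Fads2, the delta-6 desaturase, stood at 197, 213 and 199 CPM and 3.51, 3.90 and 3.52 CPM (-5.43 ± 0.08), and Scd1, the stearoyl desaturase, at 109, 113 and 117 CPM and 3.57, 2.74 and 3.04 CPM (-4.82 ± 0.09). Acsl1, which activates long-chain fatty acids and serves uptake as well as synthesis, ran the other way at 37.3, 56.5 and 46.6 CPM and 769, 763 and 785 CPM (4.40 ± 0.09). Of 14 LXR target genes, 8 were higher and 3 lower (median 1.90). Abca1, the cholesterol exporter, stood at 0.701, 0.378 and 1.16 CPM and 430, 444 and 432 CPM (9.53 ± 0.12). The 3 lower ones included Scd1 and Scd2, which are also on the fatty acid list.

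Stress responses divided by pathway. Of 25 NRF2 and glutathione genes, 17 were higher and 4 lower in the ASK1 set (median 2.07). Hmox1, which degrades haem, stood at 124, 141 and 112 CPM and 5320, 5248 and 5494 CPM (5.77 ± 0.08). Prdx1, a peroxidase, stood at 397, 465 and 483 CPM and 9898, 10015 and 10067 CPM (4.84 ± 0.08), and Slc7a11, the cystine importer, at 41.2, 59.8 and 48.5 CPM and 1233, 1252 and 1286 CPM (5.01 ± 0.09). Gpx1, a glutathione peroxidase, and Mt2, a metallothionein, ran the other way, with Gpx1 at 93.3, 74.4 and 87.6 CPM and 0.510, 0.699 and 0.587 CPM (-6.77 ± 0.16) and Mt2 at 64.7, 67.5 and 71.4 CPM and 0.0567, 0 and 0 CPM, a ratio of 3637-fold with an exact 95% interval of 652 to 143762. Of 27 genes of the unfolded protein and integrated stress responses, 17 were lower and 3 higher (median -1.40). Hspa5, the chaperone BiP, stood at 3912, 3873 and 3793 CPM and 691, 677 and 682 CPM (-2.14 ± 0.06). Phgdh and Psat1, enzymes of serine synthesis that ATF4 induces, stood at 299, 336 and 332 CPM and 4.48, 3.38 and 5.13 CPM (-5.85 ± 0.09) and at 353, 392 and 378 CPM and 7.03, 7.40 and 9.56 CPM (-5.18 ± 0.08). Slc7a11, also an ATF4 target and counted on this list too, was among the 3 higher ones. Of 15 heat shock genes, 5 were lower and 1 higher (median -0.35).

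Of 21 immediate early genes, 12 were lower and 4 higher in the ASK1 set (median -1.35). Among the 15 without exon overlap, however, 7 were lower and 4 higher, with a median of only -0.067. Egr1 stood at 25.5, 26.6 and 25.8 CPM and 2.61, 2.68 and 2.62 CPM (-2.94 ± 0.12), and Atf3 ran the other way at 167, 158 and 139 CPM and 333, 337 and 333 CPM (1.47 ± 0.06). Of 16 circadian clock genes, 9 were lower and none higher (median -1.07). Per1, a clock repressor that glucocorticoids also induce, stood at 297, 289 and 288 CPM and 20.7, 19.9 and 22.2 CPM (-3.43 ± 0.06), and Nr1d1, which encodes REV-ERB alpha, at 104, 109 and 106 CPM and 2.78, 3.32 and 2.78 CPM (-4.81 ± 0.09). Culture harvest times were not given in the labels. Txnip, a thioredoxin-binding protein that glucose induces, was among the most abundant transcripts of the NFATc3 set at 10389, 9166 and 10983 CPM and stood at 153, 155 and 155 CPM in the ASK1 set (-5.69 ± 0.08).

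Mitochondrially encoded genes were mostly higher in the ASK1 set and ribosomal protein genes mostly lower, while most nuclear-encoded genes of oxidative phosphorylation were not called. Of 30 nuclear-encoded genes of oxidative phosphorylation, 5 were lower and none higher (median -0.28). Of 29 glycolysis and hypoxia genes, 6 were lower and 5 higher (median -0.52). The median of that list turned to 0.08 when genes with an exon overlapping another gene were left out. Pfkp, a phosphofructokinase, stood at 815, 746 and 773 CPM and 108, 109 and 102 CPM (-2.52 ± 0.06), and Ndrg1, a hypoxia-induced gene, at 959, 907 and 874 CPM and 33.8, 29.4 and 32.4 CPM (-4.48 ± 0.07). Of 11 mitochondrially encoded genes tested, 8 were higher and none lower (median 2.49). Exons of 8 of the 11 overlap another gene, and the 3 without overlap were all higher. The sum of the 13 listed genes differed by far less than that median, at 17752 to 18549 CPM in the NFATc3 set and 22294 to 22621 CPM in the ASK1 set. mt-Cytb stood at 201, 230 and 213 CPM and 2019, 1964 and 1991 CPM (3.57 ± 0.06), whereas mt-Co1 was close in the sets at 16123, 16580 and 16428 CPM and 14624, 14723 and 14429 CPM (0.19 ± 0.06), with a sign that turned to -0.17 without scaling and -0.61 after the GC and length trend was removed. Of 81 ribosomal protein genes, 65 were lower and 6 higher (median -1.57), and 32 of the 42 without exon overlap were lower. Ribosomal protein genes have many processed copies in the genome, so how reads were shared among copies bears on these levels.

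**Figure D3:**
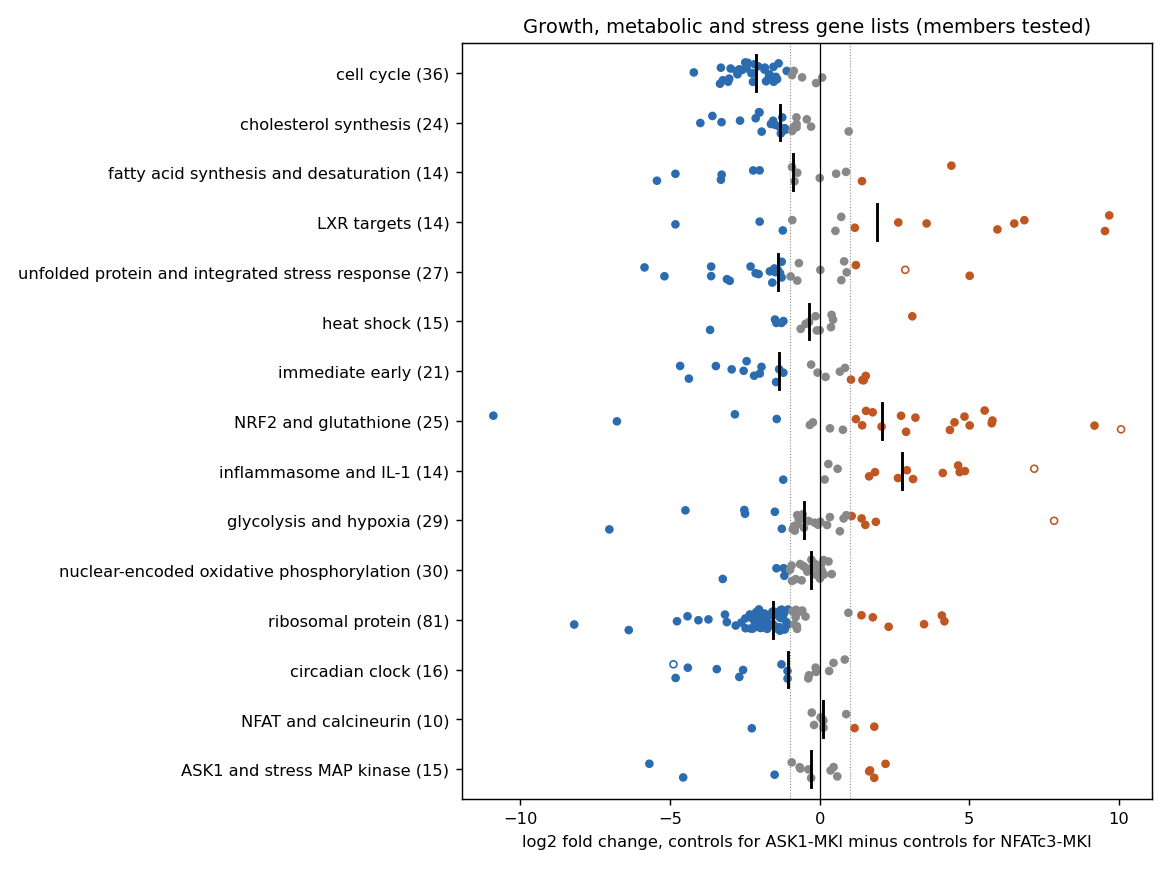
Log2 fold change (ASK1 set over NFATc3 set) of each tested member of the proliferation, metabolism and stress lists, with the same colours and symbols as in the plot of the identity lists. Cell cycle, cholesterol synthesis and ribosomal protein genes lie mostly on the lower side, with medians of -2.12, -1.32 and -1.57, and NRF2 genes mostly on the higher side, with a median of 2.07.

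The genes the study altered were close in the 2 control sets. Nfatc3, the calcineurin-activated factor, stood at 95.7, 114 and 105 CPM in the NFATc3 set and 81.9, 82.4 and 86.4 CPM in the ASK1 set (0.03 ± 0.06, adjusted p = 0.599), and its sign changed with the scaling. On unscaled log2 CPM the difference was -0.32, with an exact two-sided permutation p of 0.1, the smallest possible. Map3k5, which encodes ASK1, stood at 26.4, 22.5 and 28.9 CPM and 30.4, 30.3 and 30.5 CPM (0.59 ± 0.09, adjusted p = 4.79e-06). Its difference passed the p threshold but not the 2-fold one, and its permutation p was likewise 0.1. Of 10 NFAT and calcineurin genes, 2 were higher and 1 lower (median 0.12), and of 15 genes of ASK1 and the stress MAP kinases, 4 were higher and 3 lower (median -0.28). Both medians change sign when genes whose span overlaps another gene are left out, to -1.42 and 0.32. When only genes with overlapping exons are left out, they are -0.21 and 0.24. Nfat5, the osmotic stress member of the NFAT family, was the lower one at 833, 903 and 922 CPM and 140, 152 and 139 CPM (-2.26 ± 0.06).

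The Y-linked genes Ddx3y, Eif2s3y, Kdm5d and Uty were present in every library of both control sets. Ddx3y stood at 85.3, 91.2 and 81.2 CPM and 97.5, 98.8 and 95.0 CPM. None of the 4 was called between the control sets. They were also present in the 3 NFATc3-MKI libraries, with Ddx3y at 69.5, 80.2 and 69.0 CPM, and had no count in the 3 ASK1-MKI libraries. Xist was not analysed here.

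Most marker lists of other cell types summed to under 30 CPM in each library of both sets, with the lower sums in the NFATc3 set. The 9 genes of T and NK cells summed to at most 0.42 CPM in the NFATc3 set, where 7 had no count, and to 15.3 to 17.4 CPM in the ASK1 set. Only 1 of them was tested, Cd4, which mouse macrophages can also carry, at 16.6, 16.7 and 15.0 CPM in the ASK1 set and 0 in the other. The 6 B and plasma cell genes summed to 0.63 to 1.68 CPM and 13.9 to 16.4 CPM, and the 7 of mast cells and basophils to 0.42 to 1.16 CPM and 5.94 to 6.35 CPM. The 12 stromal and fibroblast genes summed to 0.77 to 1.54 CPM, with 8 of them at no count, and 23.5 to 24.9 CPM. The 6 endothelial genes summed to 2.02 to 2.83 CPM and 26.8 to 29.6 CPM. The 10 erythroid and megakaryocyte genes were the exception, at 3.34 to 4.41 CPM and 93.2 to 102.2 CPM, led by Pf4 at 97.3, 97.7 and 87.7 CPM in the ASK1 set, which macrophages also express. The 6 hepatocyte genes had no count in the NFATc3 set and at most 0.058 CPM in the ASK1 set. Genes off that list that hepatocytes also express, picked after their values were seen, ran the other way, with mean levels of 5.93 and 0.191 CPM for Apoa2 and 5.12 and 0.056 CPM for Ambp. The part of these cells in the differences above was not tested.

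The knock-in libraries of the same 2 tables share no sample with the controls, although they share the tables and add a genotype. Between ASK1-MKI and NFATc3-MKI, 6247 of 11752 genes tested were called (53.2%), 3024 higher (25.7%) and 3223 lower (27.4%), and 87.6% passed the p threshold alone. Of 6169 genes called between the controls and tested in both comparisons, 5458 were called in the same direction between the knock-ins, 88.5%, and 15 in the opposite one. Those 5458 genes were 87.4% of the knock-in calls. The fold changes of the 11572 genes tested in both correlated at r = 0.961 and rho = 0.963, given as a description across genes that share the tables. Adgre1 differed by 6.70 between controls and 6.84 between knock-ins, Lyz2 by 6.43 and 6.16, and Cdc20 by -4.20 and -6.91. Among pan-macrophage genes 19 were higher and 1 lower between the knock-ins, and all of the 34 cell cycle calls were lower. Not every list repeated as closely. The dendritic cell median was 1.74 between the controls and -0.53 between the knock-ins, where 2 members were higher and 3 lower. Classical activation genes were 8 higher and 6 lower between the knock-ins, and neutrophil and granule genes 3 higher and 1 lower. Of the 15 genes called in opposite directions, 5 are held by a list. Il6 differed by 5.24 between controls and -3.59 between knock-ins, Cxcl10 by 1.35 and -2.14, Cd14 by 1.15 and -1.95, Ccl22 by 1.74 and -3.27, and Prtn3, a granule protease, by 1.27 and -2.75. For these 5 the difference between the comparisons was not tested.

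**Figure D4:**
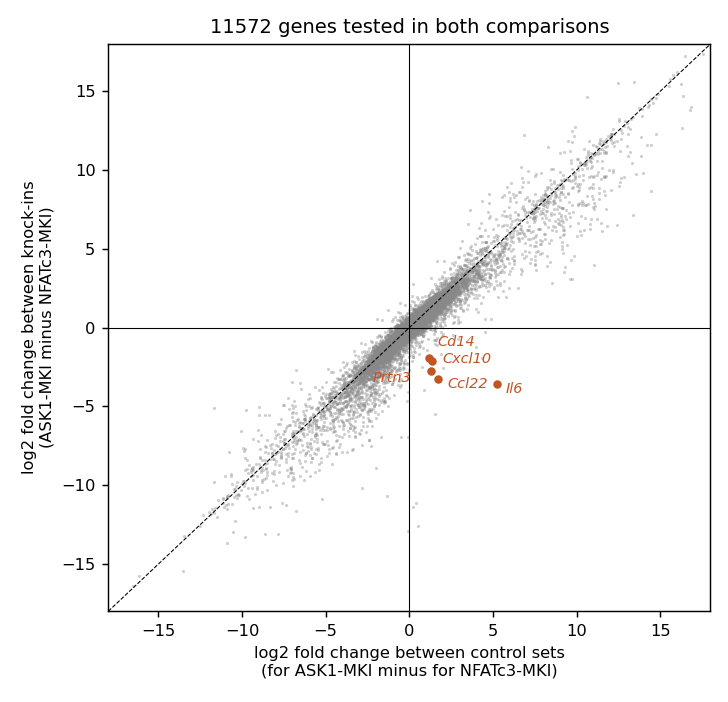
Log2 fold change of each gene tested in both comparisons, with the ASK1 set over the NFATc3 set for the controls on the horizontal axis and ASK1-MKI over NFATc3-MKI on the vertical axis. The 11572 genes lie along the diagonal (r = 0.961), and the Y-linked genes lie far below it, as Ddx3y with 0.54 between the controls and -12.62 between the knock-ins.

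Genes whose exons overlap another annotated gene were unevenly placed between the sets. Among 7309 tested genes with no exon overlap, 33.2% were higher in the ASK1 set and 20.5% lower (median 0.28). Among 3505 genes with overlap on the opposite strand only, 19.4% were higher and 34.2% lower (median -0.32). The share of genes with any exon overlap was 58.8% among those lower by more than 5 on the log2 scale and 21.9% among those higher by more than 5. Of 42 genes with no count in the ASK1 set and at least 10 CPM in the NFATc3 set, 78.6% had an overlapping exon, against 21.5% of the 158 genes missing from the NFATc3 set. Rpl23a and Tlcd1 are neighbours on opposite strands of chromosome 11 whose spans overlap, at chr11:78180932-78183584 and chr11:78176711-78181909. Rpl23a, a ribosomal protein gene, stood at 1674, 1432 and 1539 CPM and 3.40, 3.96 and 4.91 CPM (-8.20 ± 0.11), and Tlcd1 at 1889, 1543 and 1735 CPM and 1.19, 0.932 and 0.908 CPM (-10.37 ± 0.13). Both were nearly empty in the ASK1 set. Ilk, an integrin-linked kinase that most adherent cells use, also overlaps a gene on the opposite strand and had 67.5, 70.1 and 68.7 CPM in the NFATc3 set and no count in the ASK1 set. How reads in shared exons were counted in each table is not given in the sources used here, so lower values of such genes in the ASK1 set are uncertain. Among the lower genes given above this holds for Ccnd1, Cdc20, Cd74, H2-Oa, Lss, Mt2, Ndrg1, Nr1d1, Pfkp, Psmb8, Spp1 and Txnip. Of the 18 pan-macrophage genes without exon overlap, 18 were higher in the ASK1 set.

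**Figure D5:**
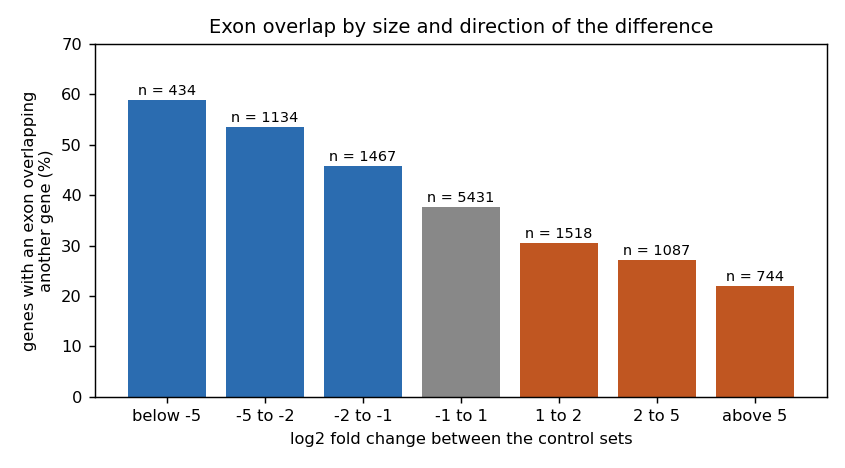
Share of tested genes with an exon that overlaps another annotated gene, in percent, by log2 fold change of the ASK1 set over the NFATc3 set. The bars fall from 58.8% in genes lower by more than 5 to 21.9% in genes higher by more than 5.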

How the data were processed

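Poly-A RNA of the cultures was made into directional dUTP libraries, per the labels' protocols. HISAT2 and the build mm10 are named in the submitters' processing notes. The authors deposited raw counts per Ensembl gene, 1 table for each culture set with its knock-ins. Which program and annotation gave the counts, and whether strand was used, is not stated in the labels or files. Counts in identifiers held by the NFATc3 table only, 6.87 to 7.33% of its control libraries, were left out. Gene names came from GENCODE M21 or another list of gene names for 21902 of the 21958 shared identifiers. Exons, GC content and length came from GENCODE M21, with GC content and length for 21851 identifiers. Promoter sequences came from RefSeq.

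The 6 control libraries were fitted with edgeR 4.0.16 in R 4.3.3 (filterByExpr, TMM factors of 1.108 to 1.150 and 0.879 to 0.887, glmQLFit and glmQLFTest, robust), with Benjamini-Hochberg adjustment over all genes tested. The common biological coefficient of variation was 0.0473. The knock-ins were fitted apart in the same way. The script was tested on simulated data with 200 changed genes, far fewer than the 6382 called between the controls. That test therefore does not cover scaling where so many genes differ. Replicates of a set differed by more than counting noise (chi-square per degree of freedom of 1.58 to 6.17). Each was kept as a sample, although this spread does not show that they came from separate mice. Counting limits for genes at 0 use 3 counts over the set and cover counting error only.

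The gene lists were chosen with earlier results of these data known, so lists are given by counts and medians without a test. Named genes are the targeted, Cre driver and Y-linked genes, the 10 largest changes in each direction above the stated CPM minimums (10 in the higher set, 0.5 in the lower), the 5 most abundant genes in each direction with no count in the other set, up to 5 called members of each list with the largest change, and its 2 most abundant members. The same 2 rules on largest changes were repeated among genes without exon overlap after the data were seen. Other genes named, Adgre1, Cd68 and Cebpa among them, were picked with their values in view. Where a set held 1 to 3 counts of a gene, the ratio of count shares is given with an exact binomial interval. Some listed genes are counted in their lists but not reported here by name. The alternatives tried were DESeq2 1.42.0, limma 3.58.1 voom, other scalings, filters and thresholds, removal of overlapping genes, thinning of the deeper table, a GC and length correction, a replicate block, all 12 libraries in 1 fit, and each replicate left out.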

Additional observations from a re-analysis of the deposited data

Results flagged for a closer look

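In the control libraries of the NFATc3 set, up to 7.333% of counts fell in the 34790 identifiers that the other table does not hold, a signal outside the shared genes that were compared. Ccl22, a chemokine of dendritic cells and macrophages, was higher by 1.74 on the log2 scale between the controls and stood at -3.27 between the knock-ins. Cd14 stood at 1.15 between the controls and -1.95 between the knock-ins. Both genes were called in opposite directions, and the difference between the comparisons was not tested.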

How the results depend on the processing

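The numbers of genes higher and lower between the controls (3348 and 3034) stayed within 1.5 times under DESeq2, limma voom, other scalings and filters, thinning, all 12 libraries in 1 fit and the GC and length correction. They were 1831 and 1568 at a 4-fold threshold, 1565 and 1295 without genes whose span overlaps another gene, and 2179 and 1778 without genes whose exons do (chosen after the data were seen), where fewer genes were tested. The corresponding numbers between the knock-ins (3024 and 3223) were 1579 and 1822, 1398 and 1343, and 1937 and 1841. Without a scaling factor, 40.7% of calls between the controls and 37.8% between the knock-ins (48.4% with it) were higher. Leaving out a replicate gave 3249 to 3576 higher and 3010 to 3165 lower genes between the controls, of which 51.7 to 53.4% were higher, and 2967 to 3290 and 3214 to 3348 between the knock-ins, of which 47.9 to 49.8% were higher. With the replicate block the numbers were 3347 and 3037 for the controls and 3029 and 3223 for the knock-ins. Deviations of same-numbered control libraries correlated at -0.004, 0.002 and 0.01, which gives no sign of pairing by number but cannot exclude it. No count of calls moved under the block by over 1.5 times.

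Of 261 named genes called at 2-fold, 225 kept the call under every alternative that held them and 36 lost it under at least 1. Genes that changed sign had differences short of 2-fold in the main fit. Without scaling these were Bst2 (-0.28), Calr (-0.34), Itga2b (-0.032), Kdm5d (-0.16), Nfatc3 (-0.33) and mt-Co1 (-0.17). After the GC and length correction they were Calr (-0.23), Cebpb (0.71), Ddx3y (-0.52), Kdm5d (-0.47), Nfatc3 (-0.54), Uty (-0.77) and mt-Co1 (-0.61). All of the genes under that correction passed the p threshold with the changed sign. With all 12 libraries in 1 fit Calr was at -0.012 and Nfatc3 at -0.003, and with the deeper table thinned Calr was at -0.017. Without span-overlapping genes Bst2 was at -0.068 and Calr at -0.13, and without exon-overlapping genes at -0.092 and -0.15. Leaving out a replicate moved Calr from -0.021 (without replicate 2 of the NFATc3 set) to 0.057, Nfatc3 from -0.02 (without its replicate 1) to 0.078 and Eif2s3y, otherwise below 0, to 0.0 (without that replicate). The cause of these changes was not tested. The sex-linked list had a median of 0.29, which was -0.49 after the GC and length correction and -0.07 without scaling, and the NFAT and calcineurin list (0.12) was at -0.12 and -0.24. The NFATc3 set was counted less deeply, which limits statements on genes without a count there to 0.131 CPM. Set, table and counting cannot be told apart, and no alternative here separates them.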

Other observations

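Matrix, protease and adhesion genes were higher in the ASK1 set at 23 of 30 members tested and lower at 4, with a median of 2.10. Mmp12, the elastase of macrophages, stood at 0.14, 0 and 0 CPM in the NFATc3 set and at 606, 623 and 659 CPM in the ASK1 set. Mmp14, a membrane-bound collagenase, stood at 0, 0 and 0.128 CPM and at 479, 476 and 484 CPM. Neither gene overlapped between the sets. Thbs1, thrombospondin 1, had no count in the NFATc3 set and 57.6, 65.6 and 61.3 CPM in the ASK1 set, at least 468-fold higher. Of 4 tested replication-dependent histone genes, 3 were lower and 1 higher, and these transcripts are poorly held by poly-A selection.

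Genes used as references were not equal between the sets. Actb stood at 841, 965 and 909 CPM in the NFATc3 set and at 1923, 1847 and 1902 CPM in the ASK1 set (1.42 ± 0.06), and Gapdh at 205, 188 and 203 CPM and at 308, 278 and 275 CPM (0.89 ± 0.06). By chromosome, the median log2 difference ran from -0.23 on chromosome 9 to 0.53 on X among nuclear chromosomes.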
